A study of Mus musculus with 20 samples.

Results

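The genes described here are mouse transcripts that still carried a RIKEN clone name from 5 series in the deposited table, and that reached at least 1 FPKM (fragments scaled by transcript length and mapped library total) in at least 2 of 12 RNA libraries. The series are called RIKEN-4921, RIKEN-4922, RIKEN-4931, RIKEN-4932 and RIKEN-4933 after the digits that open their names, as in 4933436I01Rik. Of 224 rows with such a name, 193 met this level, beside 12956 of 23235 genes in the whole table. The study compared WT spermatocytes with Cxxc1-null spermatocytes at different stages of male meiosis, and also listed H3K4me3 libraries that were not analysed here. The 6 RNA groups were WT and Cxxc1-null cells in pachytene, in diplotene and in meiosis II, with 2 libraries each. The cells came from adult testes of C57BL/6 background mice and were sorted by flow cytometry. Smart-seq2, in which oligo-dT primes the copying of whole polyadenylated transcripts, was applied to 500 cells per library. The labels name no Cre driver and do not say which part of Cxxc1 was removed. Nor do they say whether the 2 libraries of each group are from different mice. The p-values therefore measure the spread between these libraries alone, and that spread may be technical.

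The prefix of a RIKEN clone name records the cDNA library in which a transcript was first found, and these prefixes belong to libraries of adult mouse testis. The genes are thus joined by where they were first sequenced and not by a shared function. They include protein-coding genes of unknown role, long non-coding RNAs, and genes that have since been given functional names. Male germ cells in late meiosis and after it transcribe many such genes. CXXC1 binds unmethylated CpG dinucleotides and is a subunit of the SETD1 complexes, which place trimethyl marks on lysine 4 of histone H3, a mark of active promoters.

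The level was met by 110 of 127 rows of RIKEN-4933, 32 of 37 of RIKEN-4921, 25 of 31 of RIKEN-4931, 19 of 22 of RIKEN-4932 and 7 of 7 of RIKEN-4922. The 31 rows below the level included 1 that was listed at 0 in all 12 libraries. Just outside the level, the second-highest library of 4931420L22Rik held 0.976 FPKM and that of 4921508D12Rik 0.983. Just inside it were 4921525B02Rik with 1.02 FPKM and 4933426M11Rik with 1.05 FPKM. In RefSeq, 120 members matched by symbol and 72 by an older symbol, and 4933403O03Rik matched neither way. Of the matched members, 99 were annotated as protein-coding, 87 as long non-coding RNA and 6 as transcribed pseudogenes. There were 182 on autosomes and 10 on the X chromosome.

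CpG is the sequence that CXXC1 binds, so promoter windows are printed for 4 members that differed between genotypes within a single stage. They are the first 4 with a RefSeq promoter among the members named for such a difference, and were thus chosen for those calls. Each runs 5′ to 3′ from 250 bases before to 50 bases after the RefSeq start in GRCm38.p6, in lower case with every CG in capitals. The minus-strand window of 4933436I01Rik lies at chrX:67921401-67921700 and the plus-strand window of 4933422A05Rik at chr9:35280855-35281154. The plus-strand window of 4933439C10Rik lies at chr11:59505403-59505702 and the minus-strand window of 4922502N22Rik at chr6:139322527-139322826.
4933436I01Rik: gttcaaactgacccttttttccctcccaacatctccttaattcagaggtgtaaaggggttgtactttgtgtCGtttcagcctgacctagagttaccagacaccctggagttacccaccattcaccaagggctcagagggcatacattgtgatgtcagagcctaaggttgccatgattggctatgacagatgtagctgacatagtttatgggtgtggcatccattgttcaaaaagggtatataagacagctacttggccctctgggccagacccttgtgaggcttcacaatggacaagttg
4933422A05Rik: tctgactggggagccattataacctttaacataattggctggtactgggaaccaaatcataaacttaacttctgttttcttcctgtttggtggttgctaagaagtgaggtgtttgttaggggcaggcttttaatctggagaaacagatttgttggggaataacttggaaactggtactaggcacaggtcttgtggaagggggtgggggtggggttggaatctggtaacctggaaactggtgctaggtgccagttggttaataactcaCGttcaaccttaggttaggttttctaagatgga
4933439C10Rik: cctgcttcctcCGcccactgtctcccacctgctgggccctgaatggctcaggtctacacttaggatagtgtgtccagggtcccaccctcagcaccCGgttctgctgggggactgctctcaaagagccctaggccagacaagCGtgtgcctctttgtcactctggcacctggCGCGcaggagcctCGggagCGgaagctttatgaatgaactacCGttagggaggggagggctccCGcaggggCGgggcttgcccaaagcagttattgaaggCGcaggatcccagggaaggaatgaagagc
4922502N22Rik: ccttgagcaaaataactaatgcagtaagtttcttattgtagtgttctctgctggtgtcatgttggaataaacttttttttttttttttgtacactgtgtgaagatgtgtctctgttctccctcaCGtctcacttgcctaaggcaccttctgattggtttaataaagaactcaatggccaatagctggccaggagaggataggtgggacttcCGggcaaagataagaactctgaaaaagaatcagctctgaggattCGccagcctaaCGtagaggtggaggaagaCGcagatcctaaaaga

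The windows of 4933436I01Rik and 4933422A05Rik, both higher in Cxxc1-null cells, held 1 CG each. The window of 4922502N22Rik, also higher, held 5, and that of 4933439C10Rik, which was lower, held 11. A promoter was found for 83 of the 99 coding members (83.8%) and for 9516 of the 11705 coding genes tested (81.3%). Coding members had a median of 6 CG per window, against 20 over the coding genes tested. A count of 3 CG or fewer was found in 33 of the 83 coding member windows (39.8%) and in 9.27% of those of coding genes tested. Within the coding members the count went with the stage of the highest WT level. Its median was 24.5 CG in the 12 windows of members highest in pachytene, 11.5 in the 14 of members highest in diplotene and 3 in the 57 of members highest in meiosis II. The coding genes tested were not split by stage in this way, so whether this course is particular to the members was not tested. A promoter was found for only 78.2% of all 193 members and 78.9% of all genes tested, so no figure is given for the whole set of members.

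Short motifs were counted on both strands of the same windows, as descriptions. The letters GTTGCC, part of the X-box bound by the RFX family, were found in 25.3% of coding member windows, in 13.9% of those of coding genes tested and in 12.7% of all 27025 windows in the table. AACNGTC, a motif of the MYB family, was found in 10.8%, 7.98% and 8.09% of them. AACNGTT, the other MYB family motif, was found in 3.61%, 3.69% and 4.36%. TGACGTCA, the full cAMP response element, was found in 0 of the 83 coding member windows, in 3.43% of those of coding genes tested and in 1.88% of all windows. None of the 4 motifs contains another.

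Replicate libraries correlated at r = 0.957 to 0.976 across the genes tested. Cxxc1 itself was lower in both Cxxc1-null libraries than in both WT libraries at every stage. It held 3.10 and 2.02 FPKM against 12.5 and 12.8 in meiosis II. In pachytene it held 9.19 and 9.57 against 11.7 and 17.3, and in diplotene 9.57 and 8.29 against 13.7 and 17.6. The differences in pachytene and diplotene did not pass the test (limma adjusted p = 0.472 and 0.221). Cxxc1-null diplotene replicate 2 lay nearer to the WT meiosis II mean (r = 0.891) than the other diplotene libraries (0.834 to 0.849), and WT pachytene replicate 2 lay nearer to the WT diplotene mean (0.955) than replicate 1 (0.915). These are the libraries said below to stand apart. Both Cxxc1-null pachytene libraries also lay nearer to the WT meiosis II mean (0.817 and 0.806) than both WT pachytene libraries (0.766 and 0.788). They had 153 and 153 members at 1 FPKM or more, against 134 and 128. The part of this shift in the genotype differences in pachytene was not tested. All 13 pachytene spermatocyte markers were at 1 FPKM or more in at least 1 library of every group. The summed level of 20 spermatid markers was 10175 to 13722 FPKM in WT meiosis II, 4769 to 7633 in Cxxc1-null meiosis II and at most 3289 in pachytene and diplotene. That sum is dominated by Prm1, Prm2, Tnp1 and Tnp2, the protamines and transition proteins that replace histones in spermatids. Split off after the values were seen, these 4 summed to 6020 to 9360 FPKM in WT meiosis II and 1121 to 2897 in Cxxc1-null meiosis II. The other 16 summed to 4156 to 4362 in WT and 3647 to 4736 in Cxxc1-null meiosis II, which overlap. Of the 20 markers, 14 had a higher mean in Cxxc1-null than in WT pachytene, 15 in diplotene and 4 in meiosis II, with median log2 differences of 0.235, 0.643 and -0.221, against 0.0359, 0.0894 and 0.0204 over all genes tested. The summed level of 10 Sertoli cell markers was 251.9 to 341.6 FPKM in WT meiosis II, 236.0 to 251.7 in Cxxc1-null meiosis II and at most 31.1 before. How many fragments were sequenced was not stated in the sources used here. In bulk libraries fewer cells of a type and less RNA per cell cannot be told apart.

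The levels of the members spanned more than any stage or genotype difference. The mean over 12 libraries ran from 0.454 to 872 FPKM with a median of 8.39, with 105 members under 10 FPKM, 78 from 10 to 100 and 10 at 100 or above. In all, 109 members were at 1 FPKM or more in every library. The highest was 4922502D21Rik (Clec2m), named as a C-type lectin family member. It held 1008 and 719.9 FPKM in WT pachytene and 946.4 and 843.0 in Cxxc1-null pachytene, 1035 and 881.7 against 762.2 and 757.1 in diplotene and 827.5 and 1036 against 724.5 and 925.0 in meiosis II. Its genotypes overlapped in pachytene and meiosis II and were apart in diplotene, and none of its differences passed the test.

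The long non-coding RNA 4933406F09Rik came next, between 273.9 and 504.4 FPKM over the 12 libraries. The coding gene 4931417E11Rik lay between 136.0 and 309.0 FPKM, and 4933434E20Rik between 89.5 and 186.1 FPKM. None of these 3 passed a test of stage or genotype. The protein phosphatase inhibitor-like gene 4933415F23Rik (Ppp1r14bl) held 115.8 and 145.4 FPKM in WT pachytene, 268.7 and 208.8 in diplotene and 246.0 and 288.7 in meiosis II. The cilia and flagella gene 4933411K20Rik (Cfap97) held 98.8 and 103.4, then 200.8 and 156.1, then 205.3 and 168.8 FPKM. Both rose at the first step in WT, by 0.86 and 0.80 on the log2 scale (limma adjusted p = 0.0277 and 0.0294). The non-coding 4932412D23Rik, which overlaps Zbtb20, rose at the second step, from 78.02 and 70.2 to 142.5 and 160.1 FPKM in WT.

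**Figure D1:**
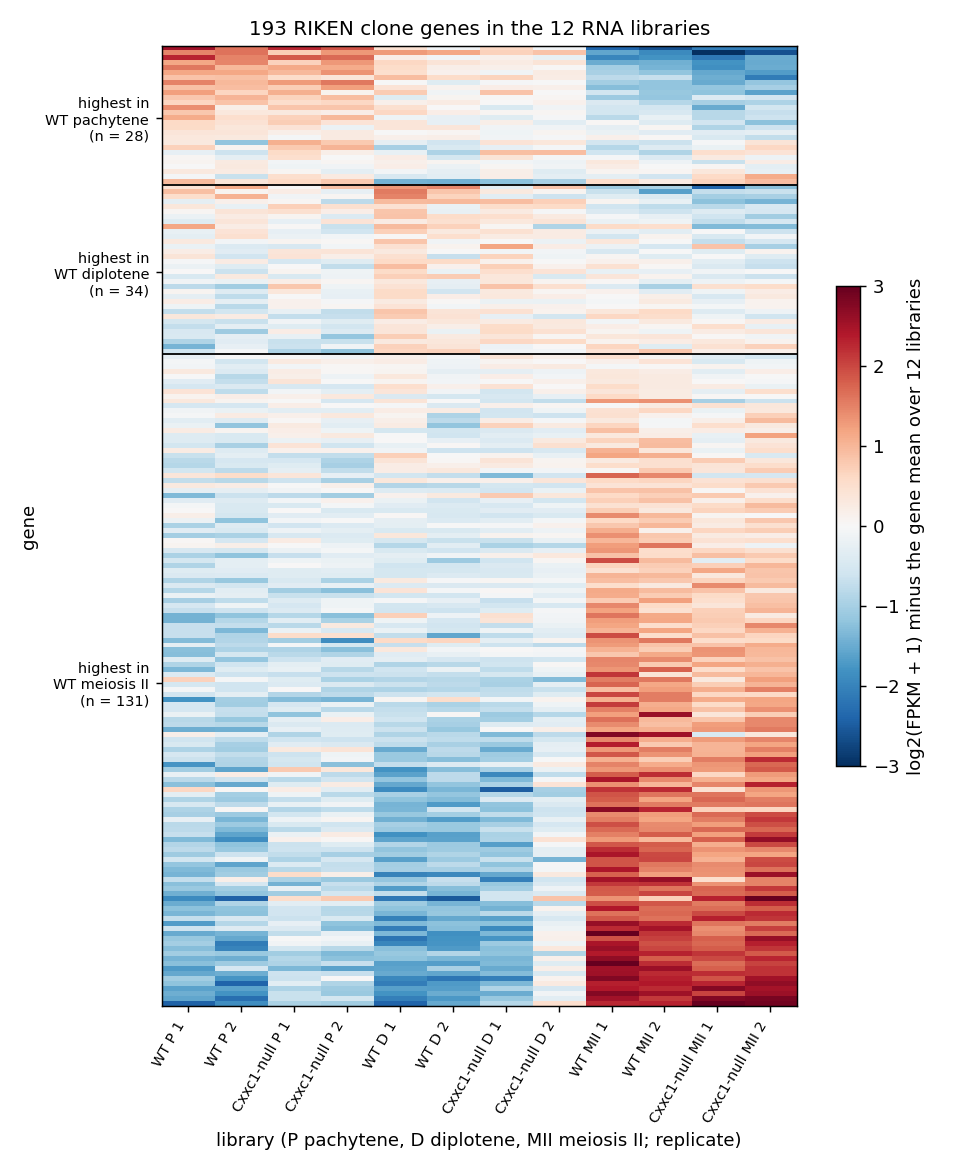
The heat map shows log2(FPKM + 1) of each of the 193 genes minus its mean over the 12 libraries, with a row per gene, a column per library and the genes grouped by the stage of their highest WT mean. The block of 131 genes highest in WT meiosis II takes up most of the rows, above the level of the other stages in both genotypes for most of them.

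Most members were highest in meiosis II. In WT the highest stage mean was in meiosis II for 131 members, in diplotene for 34 and in pachytene for 28. In Cxxc1-null cells the numbers were 124, 33 and 36, and 163 members had the same highest stage in both genotypes. Of all genes tested 42% were highest in meiosis II in WT and 40.3% in Cxxc1-null cells, against 67.9% and 64.2% of the members. The level that chose the members favours stages where they are high. Among the 160 members that met it on pachytene and diplotene libraries alone, 61.9% were highest in meiosis II in WT and 56.9% in Cxxc1-null cells, where 36.1% and 34.2% of the 11614 genes chosen in that way were. All 193 members together held 0.496% to 0.77% of all FPKM in pachytene and diplotene libraries and 0.76% to 0.987% in meiosis II libraries.

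From diplotene to meiosis II in WT, 112 of the 193 members rose and 19 fell at a limma adjusted p of 0.05, where 26.1% and 18.9% of all genes tested did (45% in either direction). The members' median change was 1.06 on the log2(FPKM + 1) scale, against 0.0173 over all genes tested. The level used to choose the members bears on this count, since 19 of them reached 1 FPKM in meiosis II libraries only. Among the 160 members that met the level on pachytene and diplotene libraries alone, 82 rose and 19 fell, with a median of 0.776. The 11614 genes that met it in that way had 20.3% rising, 21.1% falling and a median of -0.0877. Under quantile normalization, or when all libraries were given a common median, the median of all genes shifted by -0.252 and -0.297, and the members' median was 0.73 and 0.768.

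Other RIKEN clone series in the table had similar courses. Of the 368 genes tested of the RIKEN-1700 series, 61.7% rose at this step in WT with a median of 1.83, and of the 313 of the RIKEN-4930 series, 58.1% rose with a median of 1.28. Genes with other RIKEN names had 15.5% rising and a median of -0.107. Coding members had 62 of 99 rising (25.2% of all coding genes tested), and non-coding members 43 of 87 (39.0% of all long non-coding RNAs tested). The spermatid and Sertoli cell marker sums were higher in the meiosis II libraries too, where 2 of 10 Sertoli markers in WT and 3 of 10 in Cxxc1-null cells were under 1 FPKM in both libraries, against 7 and 8 in diplotene. The part of such transcripts in the rise was not tested.

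Among the members that rose most, the coding gene 4933405O20Rik went from 2.95 and 2.33 FPKM in WT diplotene to 101.2 and 73.9 in meiosis II, a log2 change of 4.59 ± 0.59 (SE; limma adjusted p = 0.00015). The glutamate-rich protein gene 4922501L14Rik (Erich3) went from 2.76 and 3.62 to 86.6 and 74.4 FPKM, a change of 4.29 ± 0.40 (limma adjusted p = 3.53e-05). Both stood at similarly low levels in WT pachytene, with 6.25 and 3.402 FPKM for the former and 3.71 and 2.72 for the latter. In Cxxc1-null cells the same step for 4933405O20Rik was from 2.61 and 15.1 to 54.7 and 84.7 FPKM, with the higher diplotene value in the library nearer to meiosis II.

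The coding gene 4933402J07Rik went from 3.56 and 4.92 to 96.3 and 100.2 FPKM at this step in WT. The gene 4921510H08Rik (Ccer1), whose protein acts in the exchange of histones for protamines in mouse spermatids, went from 3.29 and 6.83 to 108.0 and 110.9 FPKM. The coiled-coil gene 4921530D09Rik (Ccdc183) went from 1.87 and 1.82 to 70.1 and 40.05 FPKM. Like these, the coding gene 4921504E06Rik was low in diplotene, and it went from 1.07 and 1.61 to 48.1 and 36.5 FPKM. The log2 changes of the 4 genes were 4.25, 4.25, 4.25 and 4.21 in that order, all past the test.

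Against this course, the non-coding 4921525O09Rik fell most, from 42.04 and 38.5 FPKM in WT diplotene to 4.98 and 3.72 in meiosis II, a log2 change of -2.96 ± 0.25 (limma adjusted p = 2.41e-05). Next was 4933406J08Rik (Terb2), whose protein tethers meiotic telomeres to the nuclear envelope with TERB1 and MAJIN. It held 48.6 and 25.98 FPKM in WT pachytene, 10.97 and 7.03 in diplotene and 0.677 and 0.4203 in meiosis II. The stages did not overlap, and both steps were falls, of -1.90 ± 0.35 and -2.67 ± 0.35 on the log2 scale (limma adjusted p = 0.00507 and 0.000187).

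The coding gene 4921524J17Rik had the same course at a higher level, with 241.8 and 139.2 FPKM in WT pachytene, 55.6 and 45.7 in diplotene and 11.9 and 13.3 in meiosis II. In Cxxc1-null cells it held 175.6 and 159.3, then 54.6 and 41.7, then 10.3 and 16.8 FPKM, so that the genotypes overlapped at every stage. The others that fell most from diplotene to meiosis II in WT were the non-coding 4931408D14Rik (-2.40 ± 0.47), the coding gene 4933402N22Rik (-2.35 ± 0.38) and the non-coding 4933404O12Rik (-1.96 ± 0.25). All 6 of these genes passed the test of that step under all 21 alternatives tried.

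From pachytene to diplotene in WT, 20 members rose and 19 fell, where 9.08% and 17.4% of all genes tested did. This split depended on the scaling, with 31 rising and 11 falling under quantile normalization and 36 and 9 with a common median, where the median of all genes shifted by 0.146 and 0.205. The count also rested on single libraries, with 17 members in all without WT pachytene replicate 1, 12 without WT diplotene replicate 1 and 17 without WT diplotene replicate 2. The FEM1-family ankyrin repeat gene 4931440F15Rik (Fem1al), which overlaps Eml6, rose from 2.703 and 5.27 FPKM to 12.4 and 17.5, a log2 change of 1.71 ± 0.29 (limma adjusted p = 0.00358). It went on to 25.7 and 35.9 FPKM in meiosis II. The coding gene 4933405L10Rik rose from 12.2 and 16.9 to 48.04 and 50.1 FPKM. The other large rises were those of the non-coding 4932415M13Rik (1.60), the coding genes 4933421I07Rik (1.36) and 4921524L21Rik (1.25), and 4932425I24Rik (Maats1), which encodes an axonemal protein (1.19). Without WT diplotene replicate 1 none of these 4 passed, the first 2 were also lost without WT pachytene replicate 1, and 4933421I07Rik without WT diplotene replicate 2 as well. In a separate fit of these 4 libraries 0 members passed at this step.

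The largest fall at this step was that of 4933421E11Rik (Lrif1), whose protein binds heterochromatin protein 1. It held 78.3 and 51.8 FPKM in WT pachytene and 14.4 and 14.1 in diplotene, and 57.9 and 47.98 in meiosis II. Both steps passed the test, with log2 changes of -2.08 ± 0.24 and 1.82 ± 0.24 (limma adjusted p = 0.000768 and 0.000168). The same dip in diplotene was present in Cxxc1-null cells, from 61.1 and 70.04 to 16.5 and 19.8 and back to 64.1 and 76.3 FPKM.

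A dip was also recorded for 4931407G18Rik (Cabs1), which encodes a calcium-binding protein of spermatids, with 22.3 and 14.6, then 3.099 and 4.93, then 67.5 and 71.5 FPKM in WT. Its fall from pachytene was -1.95 ± 0.47 (limma adjusted p = 0.0148) and passed under 17 of 21 alternatives, not without replicate 1 of WT pachytene or of WT diplotene. The gene 4931417G12Rik (Fancd2os) held 9.18 and 11.1, then 3.08 and 4.81, then 60.2 and 50.99 FPKM. Its fall of -1.19 ± 0.34 (limma adjusted p = 0.0292) passed under 15 of 21 alternatives and was lost without any 1 of the 4 WT libraries compared. Its span overlaps that of Fancd2. Exons were not compared, and without strand information reads from sequence that such genes share cannot be told apart. The non-coding 4931428L18Rik fell at both steps, from 69.4 and 48.3 to 23.9 and 18.5 and to 11.4 and 10.1 FPKM.

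Cxxc1-null cells had much the same stage course. From diplotene to meiosis II 97 members rose and 20 fell, against 25.3% and 18.8% of all genes tested, with a median of 0.731. From pachytene to diplotene 19 rose and 17 fell, against 11.9% and 17.4%, or 22 and 12 under quantile normalization and 24 and 12 with a common median. That earlier count of 36 was 4 without Cxxc1-null pachytene replicate 2, 9 without Cxxc1-null diplotene replicate 1 and 23 without Cxxc1-null diplotene replicate 2. At the later step 112 members (58.0%) were called in both genotypes, 19 (9.84%) in WT alone and 5 (2.59%) in Cxxc1-null cells alone, where 35.5%, 9.53% and 8.64% of all genes tested were. Passing in 1 genotype alone does not show that the genotypes differ, and 0 members were called in opposite directions.

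The largest rises to meiosis II in Cxxc1-null cells were those of 4921504E06Rik, from 2.89 and 5.97 to 58.1 and 61.2 FPKM, the Phf8 pseudogene 4921501E09Rik, from 1.63 and 2.48 to 32.004 and 26.7, and 4931417G12Rik, from 4.45 and 11.03 to 82.9 and 72.7. As in WT, 4921525O09Rik and 4933406J08Rik fell most, by log2 changes of -3.60 ± 0.25 and -2.33 ± 0.35. They were followed by 4933411G11Rik (Spdye4b), of the Speedy family of cyclin-dependent kinase activators, which went from 47.7 and 35.1 to 10.2 and 6.21 FPKM. At the earlier step 4931429I11Rik (Jhy), a gene mutated in mice with juvenile hydrocephalus, rose most in Cxxc1-null cells, from 10.55 and 8.698 to 33.3 and 24.4 FPKM, a call lost without Cxxc1-null pachytene replicate 2 or diplotene replicate 1.

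**Figure D2:**
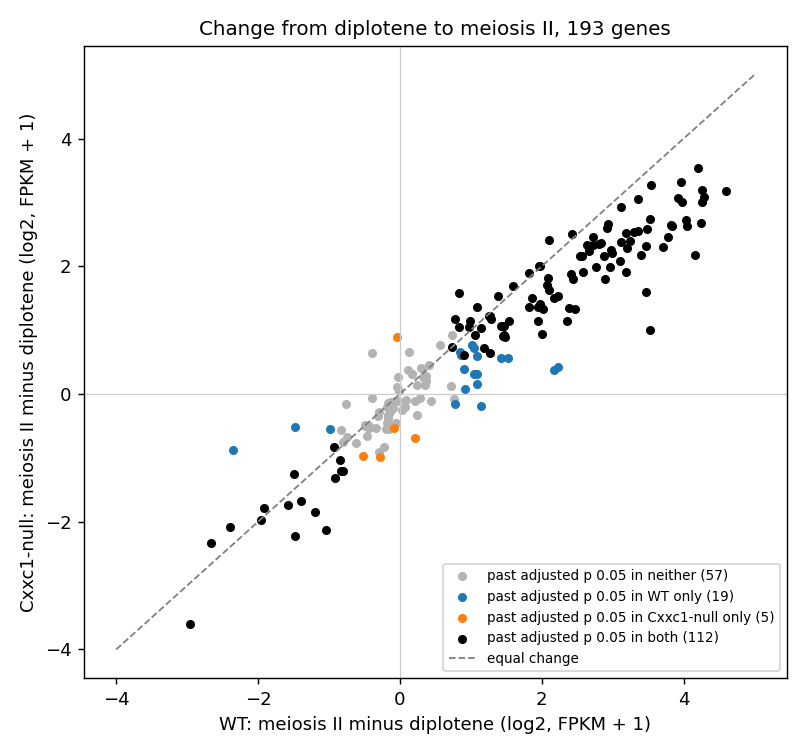
Each point is 1 of the 193 genes, with its log2 change from diplotene to meiosis II in WT on the horizontal axis and in Cxxc1-null cells on the vertical axis. The dashed line marks equal change, colours mark which of the changes passed an adjusted p of 0.05, and 99 of the 112 genes that rose in WT lie below the line.

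Of the 112 members that rose in WT, 99 (88.4%) changed by less in Cxxc1-null cells, as did 77.8% of all 3382 genes that rose in WT. These genes were picked for their rise in WT, a choice that itself favours a smaller change in the other genotype. Without Cxxc1-null diplotene replicate 2 the shares were 76.6% and 66.3%. The interaction test, which asks of each gene whether its genotype difference depends on the stage, called 0 members with limma, with 26 (13.5%) at an unadjusted p under 0.05, as were 8.77% of all genes tested. It called 7 genes in the whole table (0.054%). The smallest of the members' interaction values was that of 4921530L21Rik (limma adjusted p = 0.164), followed by 4933431G14Rik (0.245), 4933437F05Rik (0.25), 4932418E24Rik (0.292) and 4933402N03Rik (0.292). With the replicate number as a block within each genotype, 4921530L21Rik alone among the members passed (limma adjusted p = 0.0391).

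Averaged over the stages, 23 members were higher and 21 lower in Cxxc1-null cells at a limma adjusted p of 0.05, where 11.5% and 5.13% of all genes tested were. The members' median difference was 0.0222 on the log2 scale, against 0.0524 over all genes tested, and it turned negative with other scaling. Under quantile normalization 16 members were higher and 24 lower with a median of -0.0417, where the median of all genes tested was -0.0261. With a common median 18 members were higher and 23 lower with a median of -0.0179, where that of all genes tested was 0.0122. The whole table thus moved the same way. Of all genes called, 69.2% were higher as reported, 51.1% with quantiles equalised and 58.8% with equal medians. Of the members called, 52.3%, 40% and 43.9% were. Both Cxxc1-null libraries lay above both WT libraries in all 3 stages for 18 members (9.33%; 8.24% of all genes tested) and below them for 13 (6.74%; 3.91%). Another 20 members (10.4%; 8.22% of all genes tested) had both Cxxc1-null libraries above WT in 1 stage and below in another.

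With the libraries of a replicate number joined over stages, which leaves 4 units, 12 members passed, all of them among the 44. No share of all genes is set beside the counts of the other fits in this paragraph. They are therefore not read against the whole table. Libraries of a genotype with the same replicate number deviated together in all 6 pairs of stages (r from 0.116 to 0.42), so the libraries counted in the 44 may not be independent. Without the pair of libraries that stand apart 24 passed, 22 of them among the 44. Leaving out 1 library moved the count of 44 to 29 without Cxxc1-null pachytene replicate 1 and 26 without replicate 2, to 25 and 28 without WT diplotene replicates 1 and 2, to 26 without WT meiosis II replicate 2 and to 28 without Cxxc1-null meiosis II replicate 2.

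**Figure D3:**
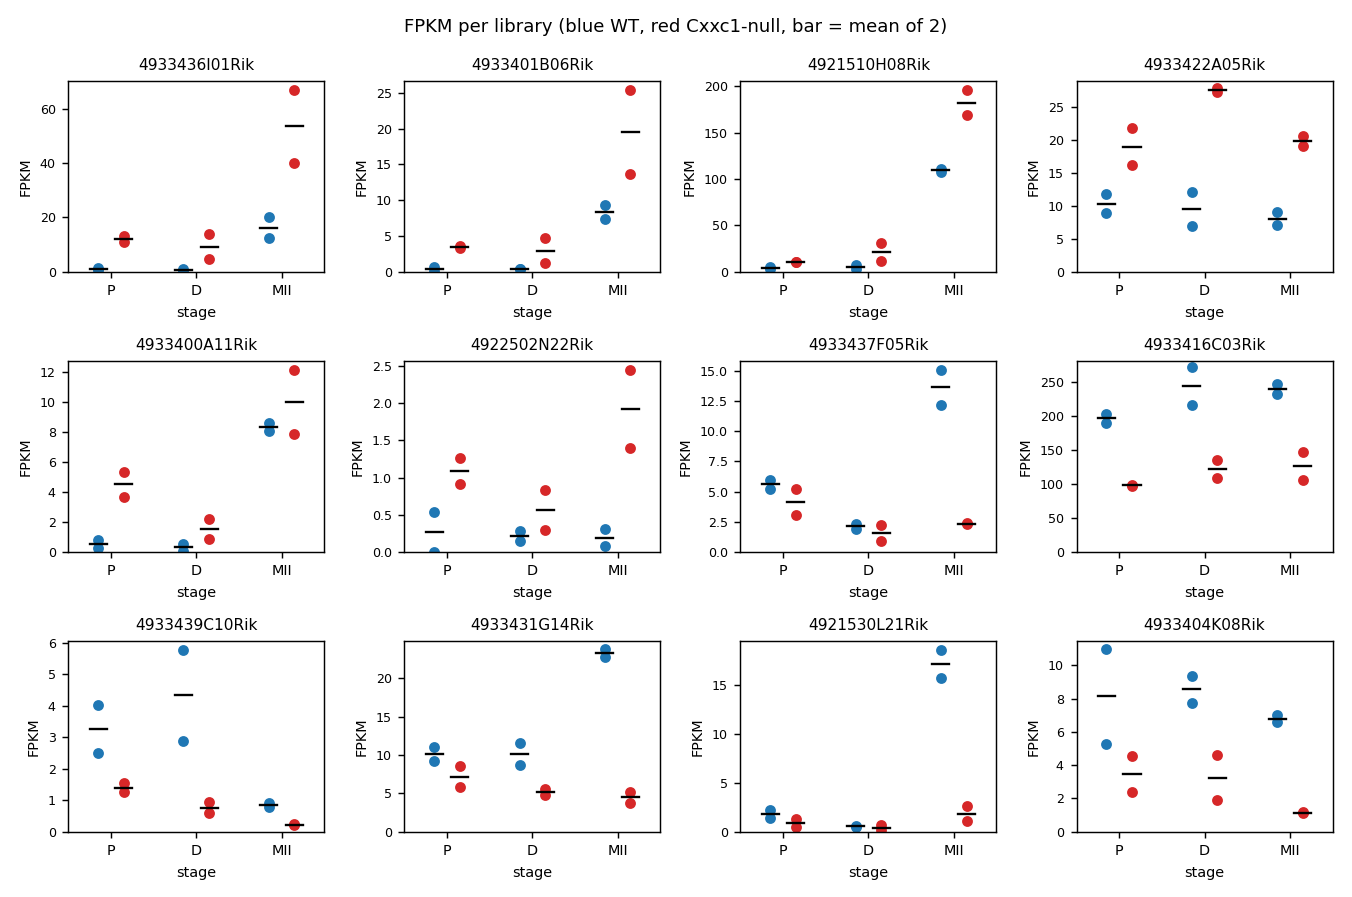
FPKM in every library of the 12 genes that passed the genotype comparison with libraries joined over stages, with stage on the horizontal axis (P pachytene, D diplotene, MII meiosis II), WT and Cxxc1-null libraries as points of different colour and a bar at the mean of 2 libraries. In the panel of 4933416C03Rik the Cxxc1-null libraries sit between 97.5 and 147.4 FPKM, all below the WT libraries.

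The largest rise in Cxxc1-null cells was that of 4933436I01Rik, a coding gene on the X chromosome. Its WT and Cxxc1-null libraries held 1.23 and 0.527 against 10.8 and 13.1 FPKM in pachytene, 0.874 and 0.432 against 4.53 and 13.8 in diplotene and 20.02 and 12.5 against 40.1 and 66.8 in meiosis II. Cxxc1-null libraries were higher at every stage without overlap. The log2 differences were 2.81 ± 0.45, 2.46 ± 0.45 and 1.65 ± 0.45 (limma adjusted p = 0.0442, 0.0408 and 0.0456), and the mean over stages was 2.31 ± 0.26 (limma adjusted p = 0.000722). The mean over stages passed under all 20 alternatives, with values from 1.98 to 2.97. The single-stage calls passed under 7 of 20, 4 of 20 and 8 of 20 alternatives. Those in pachytene and meiosis II were lost without any single library of their stage. That in diplotene was lost without any single diplotene library except Cxxc1-null replicate 1. Leaving out some single libraries of other stages also lost each of these calls.

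The non-coding 4933422A05Rik was the other member higher in diplotene. It held 11.7 and 8.87 against 21.7 and 16.2 FPKM in pachytene, 12.05 and 6.996 against 27.1 and 27.8 in diplotene and 9.03 and 7.07 against 20.6 and 18.99 in meiosis II. The genotypes did not overlap at any stage, and neither genotype rose in meiosis II. The differences were 1.48 ± 0.28 in diplotene (limma adjusted p = 0.0431), 1.21 ± 0.28 in meiosis II (limma adjusted p = 0.0229) and 1.17 ± 0.16 over stages (limma adjusted p = 0.00177). The last passed under all 20 alternatives, that in diplotene under 4 of 20 and that in meiosis II under 15 of 20. The meiosis II call was lost in a separate fit of the meiosis II libraries and without any 1 of those 4 libraries.

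The non-coding 4933439C10Rik was the member lower in diplotene. Its WT and Cxxc1-null libraries held 2.51 and 4.04 against 1.25 and 1.55 FPKM in pachytene, 5.79 and 2.88 against 0.945 and 0.588 in diplotene and 0.9004 and 0.798 against 0.208 and 0.239 in meiosis II. Cxxc1-null libraries were lower at every stage without overlap. The difference was -1.55 ± 0.27 in diplotene (limma adjusted p = 0.038) and -0.98 ± 0.16 over stages (limma adjusted p = 0.00366). It overlaps Zkscan17, a zinc finger gene named here after its values were seen, which differed by -1.87 ± 0.22 over stages (limma adjusted p = 0.000831). Overlap was judged from the start and end of each gene, not its exons, and their reads may not be told apart. The diplotene call passed under 7 of 19 alternatives and that over stages under all 19.

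In single stages few members were called before meiosis II. In pachytene 1 was higher and 0 lower (0.34% and 0.0154% of all genes tested), and in diplotene 2 were higher and 1 lower (0.702% and 0.0849%, and 0.787% in either direction). In meiosis II 4 were higher and 13 lower, where 6.14% and 4.35% of all genes tested were. The members' median in meiosis II was -0.203 against 0.0204 over all genes tested, and it stayed negative on both other scalings, at -0.211 with quantiles equalised and -0.149 with equal medians. For the RIKEN-1700 series the median there was -0.104, with 5 higher and 22 lower, and for the RIKEN-4930 series -0.105, with 11 higher and 18 lower.

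These counts rested on single libraries, and the counts with a library left out are given without the share of all genes called. That in diplotene was 15 without Cxxc1-null diplotene replicate 1, 1 without WT pachytene replicate 1 and 0 without any other single library except WT pachytene replicate 2. That in pachytene was 3 without either Cxxc1-null diplotene library and 0 without any other single library except WT pachytene replicate 1. The 17 calls in meiosis II became 5 and 10 when WT meiosis II replicate 1 or 2 was left out, and 9 and 6 when Cxxc1-null meiosis II replicate 1 or 2 was. The members called under all 4 of these omissions were 4921530L21Rik, 4933402N03Rik, 4933431G14Rik and 4933437F05Rik.

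**Figure D4:**
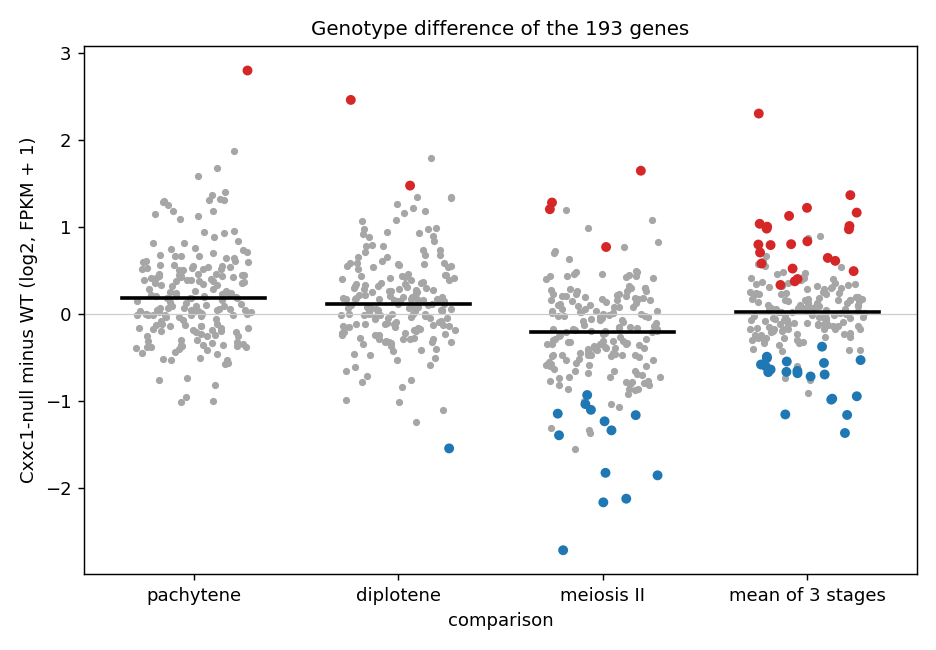
Cxxc1-null minus WT difference in log2(FPKM + 1) of each of the 193 genes (points) in each stage and averaged over the stages, with a bar at the median and coloured points for an adjusted p under 0.05 (red higher, blue lower). In meiosis II 13 points are blue and 4 are red, and the bar lies at -0.203.

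Of the 13 members lower in meiosis II, 4921530L21Rik (Spertl), named for a spermatid-associated gene, differed most. Its WT libraries held 18.5 and 15.7 FPKM there and the Cxxc1-null libraries 1.096 and 2.600. In diplotene it held 0.523 and 0.625 against 0.138 and 0.664 FPKM, and in pachytene 2.21 and 1.35 against 0.524 and 1.24. The genotypes were apart in meiosis II and pachytene and overlapped in diplotene. The meiosis II difference was -2.72 ± 0.32 (limma adjusted p = 0.00173) and passed under all 20 alternatives. Its rise from diplotene was 3.52 ± 0.32 in WT and 0.997 ± 0.32 in Cxxc1-null cells on the log2 scale.

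The non-coding 4933431G14Rik held 22.8 and 23.9 FPKM in WT and 3.805 and 5.12 in Cxxc1-null meiosis II libraries. In diplotene it held 11.5 and 8.66 against 5.55 and 4.81, and in pachytene 11.04 and 9.24 against 8.59 and 5.77. Cxxc1-null libraries were lower at every stage without overlap. The meiosis II difference was -2.17 ± 0.25 (limma adjusted p = 0.00173) and passed under all 20 alternatives. It overlaps St3gal5, whose own difference over stages was -0.16 ± 0.22 (limma adjusted p = 0.654).

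The oxidoreductase domain gene 4933437F05Rik (Noxred1) held 15.1 and 12.2 FPKM in WT and 2.303 and 2.38 in Cxxc1-null meiosis II libraries. In diplotene it held 2.298 and 1.91 against 0.927 and 2.21, and in pachytene 5.21 and 5.99 against 5.199 and 3.06. The genotypes were far apart in meiosis II, overlapped in diplotene and nearly met in pachytene. The meiosis II difference was -2.12 ± 0.29 (limma adjusted p = 0.00307) and passed under all 20 alternatives. In WT it rose from diplotene to meiosis II by 2.23 ± 0.29 (limma adjusted p = 0.000177), while in Cxxc1-null cells the value was 0.43 ± 0.29 (limma adjusted p = 0.273).

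The non-coding 4933404K08Rik was lower at every stage, with 10.97 and 5.298 against 4.54 and 2.36 FPKM in pachytene, 9.37 and 7.73 against 4.604 and 1.89 in diplotene and 6.998 and 6.57 against 1.13 and 1.17 in meiosis II. Over stages the difference was -1.37 ± 0.22 (limma adjusted p = 0.00399), the largest fall among the members, under all 20 alternatives. In meiosis II it was -1.86 ± 0.39 (limma adjusted p = 0.0162), a call lost without any 1 of the 4 meiosis II libraries.

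The coding gene 4921507P07Rik held 37.3 and 27.5 FPKM in WT and 8.43 and 8.21 in Cxxc1-null meiosis II libraries, a difference of -1.83 ± 0.37 (limma adjusted p = 0.015). The coding gene 4933402N03Rik held 3.598 and 4.89 against 1.24 and 0.751 FPKM there (-1.40 ± 0.22, limma adjusted p = 0.00491). The coiled-coil gene 4932418E24Rik (Ccdc187) held 6.39 and 4.29 against 1.82 and 1.76 FPKM (-1.16 ± 0.20, limma adjusted p = 0.00789). In these 3 the genotypes did not overlap in meiosis II, and the first was lost without WT meiosis II replicate 1 or either Cxxc1-null meiosis II library. The call of 4933402N03Rik was lost with a pseudocount of 0.1 and in a separate fit of the meiosis II libraries, and passed under 17 of 19 alternatives. That of 4932418E24Rik was followed only in the separate fit and with single meiosis II libraries left out. It was lost in that fit and without WT meiosis II replicate 1.

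Among the spermatid markers, Prm1 held 2213 and 3794 FPKM in WT and 336.6 and 999.5 in Cxxc1-null meiosis II libraries (limma adjusted p = 0.0913). Prm2, Tnp1 and Tnp2 were also lower in both Cxxc1-null libraries there, and 0 of the 20 markers passed the test in meiosis II. The summed level of the other 16 overlapped between the genotypes, and Spaca1, Tssk1, Catsper3 and Acr had higher Cxxc1-null means. The part of spermatid transcripts in the lower members was not tested.

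The members higher in meiosis II were 4933436I01Rik, 4933422A05Rik, 4922502N22Rik and 4933413J09Rik. The non-coding 4922502N22Rik was near the lower end of the range, with 0.529 and 0 against 1.27 and 0.915 FPKM in pachytene, 0.151 and 0.2796 against 0.836 and 0.298 in diplotene and 0.304 and 0.0707 against 1.399 and 2.45 in meiosis II. Cxxc1-null libraries were higher at every stage. The meiosis II difference was 1.28 ± 0.26 (limma adjusted p = 0.0153). That call was lost with a pseudocount of 0.1, in a separate fit of the meiosis II libraries and without either WT library or Cxxc1-null replicate 2. The non-coding 4933413J09Rik held 1.19 and 0.839 against 3.02 and 1.93 FPKM in meiosis II and at most 0.296 before (0.77 ± 0.18, limma adjusted p = 0.0226). Its call was lost with a pseudocount of 0.1, in the separate fit and without any meiosis II library except Cxxc1-null replicate 2.

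A steady difference at a high level was that of 4933416C03Rik (Taf7l2), named as a relative of TAF7, a subunit of the general transcription factor TFIID. Its WT and Cxxc1-null libraries held 203.3 and 190.4 against 97.5 and 98.6 FPKM in pachytene, 272.9 and 216.2 against 135.9 and 108.8 in diplotene and 247.3 and 232.4 against 147.4 and 106.4 in meiosis II. Every Cxxc1-null library lay below every WT library. The log2 differences by stage were -0.997 ± 0.22, -0.99 ± 0.22 and -0.93 ± 0.22, of which only the last passed the test (limma adjusted p = 0.105, 0.0652 and 0.0248). That call was lost in a separate fit of the meiosis II libraries, and without either WT meiosis II library or Cxxc1-null meiosis II replicate 2. Over stages the difference was -0.97 ± 0.13 (limma adjusted p = 0.00127) and passed under all 20 alternatives.

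Other falls over stages were smaller. The non-coding 4921525O09Rik held 48.1 and 53.5 against 28.6 and 42.5 FPKM in pachytene, 42.04 and 38.5 against 27.3 and 30.9 in diplotene and 4.98 and 3.72 against 1.13 and 1.87 in meiosis II. The genotypes did not overlap at any stage, and the difference over stages was -0.70 ± 0.15 (limma adjusted p = 0.0119). The calls over stages of 3 members were lost in many alternatives, namely the non-coding 4921513I03Rik (-0.68 ± 0.20, under 7 of 20), the non-coding 4931431C16Rik (-0.67 ± 0.16, under 11 of 20) and 4921507P07Rik (-0.72 ± 0.22, under 7 of 20).

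Among the rises over stages, 4921510H08Rik (Ccer1) held 3.24 and 5.22 against 10.8 and 10.01 FPKM in pachytene, 3.29 and 6.83 against 11.5 and 31.3 in diplotene and 108.0 and 110.9 against 196.1 and 168.8 in meiosis II. Cxxc1-null libraries were higher at each stage without overlap, and the difference over stages was 1.22 ± 0.24 (limma adjusted p = 0.00936), under all 20 alternatives. Its higher Cxxc1-null diplotene value was in the library nearer to meiosis II. The non-coding 4933417E11Rik held 2.699 and 2.08 against 10.2 and 4.77 FPKM in pachytene, 7.61 and 4.24 against 10.52 and 7.91 in diplotene and 3.79 and 2.25 against 7.82 and 8.26 in meiosis II, again without overlap. Over stages it differed by 1.01 ± 0.21 (limma adjusted p = 0.011), and 4921504E06Rik by 0.98 ± 0.19 (limma adjusted p = 0.00825). The calls of these last 2, like that of 4921525O09Rik, were lost when replicates were joined over stages. Less secure were the non-coding 4933440J02Rik (0.98 ± 0.23, under 14 of 20 alternatives) and 4933425H06Rik (Sox5os3), which overlaps Sox5 (1.13 ± 0.32, under 7 of 20).

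Spermatid markers differed in both directions. Over stages 4 of the 20 were higher in Cxxc1-null cells and 1, Prm2, lower (limma adjusted p under 0.05). Of all genes tested 11.5% and 5.13% were. The difference over stages was positive for 12 of the 20, and for 7334 of the 12956 genes tested. In pachytene and in diplotene alone 0 of the 20 passed the test. Prm1, Prm2, Tnp1 and Tnp2 had median log2 differences of -0.417 and -0.945 at these stages. The 4 markers higher over stages were Acrv1, Spaca1, Catsper3 and Izumo1. Acrv1, which encodes an acrosomal protein, held 17.7 and 11.9 FPKM in WT against 45.1 and 65.4 in Cxxc1-null pachytene, and 10.4 and 11.9 against 19.6 and 69.97 in diplotene. Spaca1, another gene of the acrosome, held 28.7 and 17.9 against 62.1 and 65.7 FPKM in pachytene, and 13.4 and 19.2 against 31.7 and 94.6 in diplotene. Catsper3, which encodes a sperm calcium channel subunit, held 3.92 and 3.12 against 16.9 and 14.6 FPKM in pachytene, and Izumo1, which encodes a sperm protein for egg binding, 2.17 and 2.06 against 6.34 and 6.28. The genotypes of these 4 genes did not overlap in pachytene or diplotene, and the higher Cxxc1-null diplotene value was in replicate 2, the library nearer to meiosis II. Their differences over stages were 1.09, 1.16, 1.32 and 0.83 on the log2 scale (limma adjusted p = 0.0371, 0.016, 0.0122 and 0.0376). The part of spermatid transcripts in the members that were higher in Cxxc1-null pachytene and diplotene was not tested.

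The X-linked members shared a stage course. Genes on the X chromosome are silenced in pachytene and diplotene spermatocytes, a process called meiotic sex chromosome inactivation, and some are transcribed again afterwards. In WT all 10 X-linked members were at 1.23 FPKM or less in every pachytene and diplotene library and at 1.22 to 20.0 FPKM in meiosis II. All 10 rose from diplotene to meiosis II in both genotypes, as did 89.7% of the 407 X-linked genes tested in WT and 90.4% in Cxxc1-null cells. The level that chose the members bears on this rise. None of the 10 met it on WT pachytene and diplotene libraries alone. Of these, 4932411N23Rik, 4933402E13Rik and 4933407K13Rik met it only through their meiosis II libraries. The 407 genes were chosen with the same level. Over stages 7 of the 10 were higher in Cxxc1-null cells and 0 lower, where 42.0% and 0.983% of the X-linked genes tested were. Among the 182 autosomal members 16 were higher and 21 lower, beside 10.5% and 5.28% of the autosomal genes tested.

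**Figure D5:**
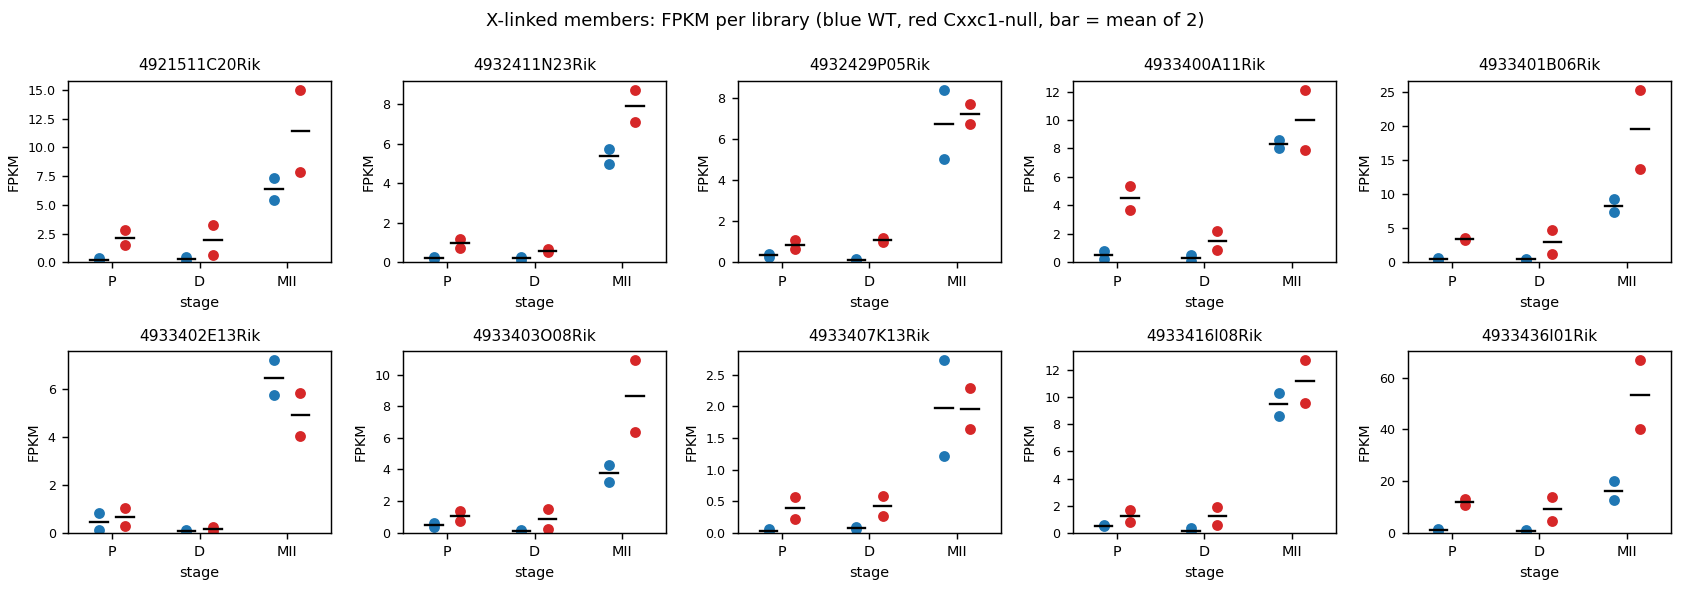
FPKM in every library of the 10 X-linked members, with stage on the horizontal axis (P pachytene, D diplotene, MII meiosis II), WT and Cxxc1-null libraries as points of different colour and a bar at the mean of 2 libraries. Every WT library of pachytene and diplotene is at 1.23 FPKM or less, and both Cxxc1-null pachytene libraries of 4933436I01Rik, 4933401B06Rik and 4933400A11Rik are above 3 FPKM.

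Beside 4933436I01Rik, the transcribed pseudogene 4933401B06Rik held 0.6896 and 0.159 against 3.63 and 3.33 FPKM in pachytene, 0.421 and 0.391 against 1.23 and 4.71 in diplotene and 9.33 and 7.37 against 13.7 and 25.4 in meiosis II. The genotypes did not overlap at any stage, and the difference over stages was 1.37 ± 0.24 (limma adjusted p = 0.00585). The transcribed pseudogene 4933400A11Rik, which overlaps Mid1, held 0.7796 and 0.235 against 5.34 and 3.68 FPKM in pachytene, 0.0694 and 0.515 against 0.834 and 2.19 in diplotene and 8.04 and 8.59 against 7.86 and 12.1 in meiosis II. Its genotypes were apart in pachytene and diplotene and overlapped in meiosis II, and the difference over stages was 1.01 ± 0.19 (limma adjusted p = 0.00844). Both differences over stages passed under all 20 alternatives.

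Another transcribed pseudogene, 4921511C20Rik, held 0.357 and 0.115 against 1.49 and 2.803 FPKM in pachytene, 0.102 and 0.424 against 0.657 and 3.26 in diplotene and 7.32 and 5.38 against 7.84 and 15.03 in meiosis II. Its genotypes were apart at every stage, and the difference over stages was 1.04 ± 0.25 (limma adjusted p = 0.0219), under 13 of 20 alternatives and lost without the pair of libraries that stand apart. Cxxc1-null diplotene replicate 2, the library nearer to meiosis II, held the higher of the Cxxc1-null diplotene values in every X-linked member except 4933402E13Rik, a gene singled out after its values were seen, which differed by -0.01 over stages. The levels of the pseudogenes are uncertain, since no source used here states how reads were shared between near-identical copies.

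By annotation, 7 of 99 coding members were higher and 9 lower over stages, where 11.6% and 5.07% of all coding genes tested were. Of the 87 non-coding members 11 were higher and 12 lower, where 10.7% and 5.92% of all long non-coding RNAs tested were. Among the 6 transcribed pseudogenes, 3 of them on the X chromosome, 5 were higher and 0 lower, where 14.3% and 7.14% of the 154 transcribed pseudogenes tested were. In meiosis II coding members had 1 higher and 8 lower with a median of -0.319, where 6.37% and 4.25% of the coding genes tested were, with a median of 0.0348. Non-coding members had 3 higher and 5 lower with a median of -0.172, close to the 3.64% higher and 5.58% lower of all long non-coding RNAs tested, whose median was -0.105. In the annotation 89 members overlapped another gene, 51 of them a gene that was tested, and the levels of those members may hold reads of the other gene.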

How the data were processed

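The authors deposited 1 table of FPKM values for 23235 genes in the 12 RNA libraries. The submitters' processing notes list the tools TopHat2 2.1.1 and Cufflinks 2.2.1 and the build mm9, without saying what each did. The sequencing depth is unknown, and no count test was run on FPKM. Groups came from the sample titles. Values were transformed to log2(FPKM + 1), which understates changes of low genes. The 12956 genes at 1 FPKM or more in at least 2 libraries entered 1 limma 3.58.1 fit (R 4.3.3) with a mean per group, a mean-variance trend, 6 residual degrees of freedom and Benjamini-Hochberg adjustment over all of them at 0.05. Differences are given ± SE. The script was tested on simulated data.

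The members, marker lists and rules were chosen with earlier results of these data known. Named genes are the 8 highest members, the largest changes past the test per comparison (6 per direction by stage, 10 over stages, 3 for the Cxxc1-null stage steps), the 5 smallest interaction values and the rows at the level's edge. Alternatives covered the pseudocount, filter, scaling, replicate block, joined replicates, separate fits and each library left out; leaving out both libraries that stand apart, and a replicate block within each genotype, were added after seeing the data. RefSeq GRCm38.p6 gave names, chromosomes, overlaps and promoters. No protein sequences or mm9 coordinates were used here. Figures were drawn with matplotlib 3.10.9 in Python 3.11.15.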

Additional observations from a re-analysis of the deposited data

How the results depend on the processing

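Of 1431 recomputed values of 70 named results, 0 changed direction. These results were chosen for passing the test, and those by stage or step also for no overlap. A change of direction was therefore unlikely from the start, and this count is no measure of how secure the calls are. Not every alternative applied to all 70. In separate fits 29 still passed the test and 21 did not. With no expression filter 56 passed and 14 did not, and with replicates joined over stages 11 passed and 9 did not. The counts of members called moved more, and are given here without the share of all genes called in each alternative. With no expression filter they were 0 in pachytene (1 as reported), 0 in diplotene (3), 27 over stages (44), 23 for pachytene to diplotene in WT (39) and 22 for that step in Cxxc1-null cells (36). With a pseudocount of 0.1 they were 6 in diplotene and 11 in meiosis II (17), and with a level of at least 5 FPKM 11 in meiosis II. Quantile normalization gave 1 in diplotene, all of it lower in place of 2 higher and 1 lower. In separate fits of the libraries compared they were 0 in pachytene, 0 in diplotene, 5 in meiosis II and 0 for pachytene to diplotene in WT, with fewer samples per fit. Without both libraries that stand apart they were 0 in pachytene, 0 in diplotene and 24 over stages, and with replicates joined over stages 12. A separate fit of the mean over stages would use the same 12 libraries and was not run.

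Leaving out 1 library at a time gave 0 to 3 in pachytene, 0 to 15 in diplotene, 5 to 20 in meiosis II and 25 to 43 over stages. It gave 12 to 39 for pachytene to diplotene in WT, 4 to 38 in Cxxc1-null cells, 116 to 132 for diplotene to meiosis II in WT (131 as reported) and 93 to 118 in Cxxc1-null cells (117). A stage left with 1 library was assumed to vary like the other groups. The interaction called 0 members in every alternative except the block within genotypes given next. The cause of these moves was not tested beyond the smaller number of libraries.

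The labels do not say what a replicate number stands for. Deviations of same-numbered libraries correlated above 0.1 in 6 of 6 pairs of groups within a genotype (r from 0.116 to 0.42) and in 5 of 9 pairs between genotypes (-0.253 to 0.321), and 2 numbers are too few to settle the pairing. With 1 replicate block over all groups the counts were 1, 3 and 25 by stage, 51 over stages, 49 and 135 for the steps in WT and 40 and 122 in Cxxc1-null cells. With a replicate block within each genotype, added after seeing the data and read for the stage steps alone, they were 58 and 135 in WT and 46 and 126 in Cxxc1-null cells, and the interaction called 1 member, 4921530L21Rik (adjusted p = 0.0391; 0.164 as reported).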
